A study of Mus musculus with 34 samples.

Results

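The metabotropic glutamate receptors are described here from the cortex of R6/2 mice, HDAC4het mice and the other genotypes of their cross at 15 weeks of age. All probe sets whose platform annotation gave 1 gene symbol out of Grm2, Grm3, Grm4, Grm5, Grm7 and Grm8 were taken, which gave 9 probe sets of 6 genes out of 45037 probe sets and 18193 named genes on the array. Grm2, Grm3, Grm4 and Grm8 had 1 probe set each, Grm5 had 2 (the brighter and the dimmer by mean level) and Grm7 had 3 (the brightest, the middle and the dimmest). The 34 arrays, each hybridised with cortex RNA of a single mouse, fell into 8 of WT and 8 of HDAC4het mice, 9 of R6/2 and 9 of R6/2::HDAC4het mice, all labelled with the strain CBA X C57Bl/6 and with both sexes in each group. R6/2 mice are hemizygous for a transgene that drives exon 1 of human HTT with an expanded CAG repeat from the human HTT promoter, so the mutant fragment is made throughout the body, next to 2 intact copies of mouse Htt. HDAC4het mice carry 1 constitutive null allele of Hdac4 and are heterozygous in every tissue, with DNA of the strain in which the allele was made still expected around Hdac4, and R6/2::HDAC4het mice carry both the transgene and the null allele.

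Metabotropic glutamate receptors are G protein-coupled receptors for the main excitatory transmitter of the cortex. Group I receptors such as Grm5 couple to Gq and phospholipase C and sit mostly around the postsynaptic density, whereas group II (Grm2 and Grm3) and group III (among them Grm4, Grm7 and Grm8) couple to Gi/o and lower cyclic AMP. Grm2 is found on preterminal axons of neurons, Grm3 on neurons and astrocytes, and Grm4, Grm7 and Grm8 at the presynaptic active zone, where they hold back transmitter release.

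The windows around the annotated gene starts of Grm2, Grm3 and Grm7 are printed. They show the promoters of the group II pair, both lower in R6/2 than in WT, and of the gene whose probe sets gave different answers. They come from RefSeq on GRCm38.p6, run from 250 bases before to 50 bases after the start, and are written 5′ to 3′ on the strand of the gene. All 3 were searched on both strands for the cyclic AMP response element TGACGTCA, which reads the same on both strands, and for the GC box GGGCGG, and capitals mark a match. These 2 motifs share no overlapping match in the windows shown.
Grm2, chr9:106656060-106656359, minus strand: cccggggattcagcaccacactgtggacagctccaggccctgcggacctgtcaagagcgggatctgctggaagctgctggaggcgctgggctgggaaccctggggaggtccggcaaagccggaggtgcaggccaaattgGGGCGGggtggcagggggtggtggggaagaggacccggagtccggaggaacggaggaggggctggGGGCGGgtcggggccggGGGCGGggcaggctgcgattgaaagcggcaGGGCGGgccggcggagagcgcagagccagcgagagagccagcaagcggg
Grm3, chr5:9725303-9725602, minus strand: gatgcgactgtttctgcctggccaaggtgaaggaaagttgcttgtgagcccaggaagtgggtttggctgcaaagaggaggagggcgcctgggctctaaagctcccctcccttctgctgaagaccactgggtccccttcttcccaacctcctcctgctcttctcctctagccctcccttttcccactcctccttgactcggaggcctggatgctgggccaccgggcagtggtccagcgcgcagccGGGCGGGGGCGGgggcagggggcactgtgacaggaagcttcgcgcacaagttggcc
Grm7, chr6:110645262-110645561, plus strand: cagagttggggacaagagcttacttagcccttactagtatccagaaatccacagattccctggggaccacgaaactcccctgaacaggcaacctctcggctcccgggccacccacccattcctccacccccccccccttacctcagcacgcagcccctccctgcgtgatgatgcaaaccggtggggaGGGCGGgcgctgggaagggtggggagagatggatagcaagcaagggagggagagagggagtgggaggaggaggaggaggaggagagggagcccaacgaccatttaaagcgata
The Grm2 window held 4 GC boxes, the Grm3 window held 2 that adjoin each other, and the Grm7 window held 1. Among all 7 windows that the table gave for 4 of the members (1 for Grm2, 1 for Grm3, 2 for Grm7 and 3 for Grm8), 5 held a GC box, as did 35.7% of the 32851 windows of all genes. The 2 Grm7 windows overlap, and the same GC box is counted in both. None of the 7 held TGACGTCA, which 1.79% of all windows held. No window was used for Grm4 or Grm5.

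Of the whole table, array medians lay between 5.44 and 5.52 on the log2 scale of all values given here. Hdac4 transcript, the target of the null allele, read 8.06 ± 0.13 in WT (SD, n = 8), 7.58 ± 0.10 in HDAC4het (SD, n = 8), 7.91 ± 0.19 in R6/2 (SD, n = 9) and 7.58 ± 0.14 in R6/2::HDAC4het (SD, n = 9) on its brightest probe set. The position of this probe set within Hdac4 was not examined. Prolactin transcript (Prl) was above 8 in WT replicates 2, 6 and 7 and HDAC4het replicate 1, R6/2 replicate 2 carried epidermal transcripts (summed marker level 10.35, against 8.83 to 9.15 in the arrays of R6/2::HDAC4het), and the labelled sex differed from the sex read from Xist in 15 of 34 arrays. Each result below that turns on one of these is given with and without them. The number of arrays limits the precision of every comparison, and levels are compared within a probe set only.

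R6/2 was first set against WT, to see what the HTT transgene did to the receptors. Transcripts of Grm2, Grm3, Grm4 and Grm8 were lower in R6/2 than in WT cortex. Grm7 was lower on 1 of 3 probe sets and not on its brightest, and the group I receptor Grm5 did not pass the test. By limma, 5 of the 9 probe sets fell (Grm2, Grm3, Grm4, Grm8 and 1 of 3 for Grm7) and 0 rose, against 12.0% of all 45037 probe sets that were called lower at the same adjusted p of 0.05 or less. The median log2 change over the 9 probe sets was -0.51, beside 0.01 over all probe sets. On 2 of the 9, those of Grm2 and Grm7, every R6/2 array lay below every WT array, which was so for 3.03% of all probe sets. Cortex was measured as bulk tissue, so fewer cells of a type and less RNA per cell cannot be told apart.

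Grm2, the group II autoreceptor, lay between 8.57 and 8.87 in WT (median 8.72, n = 8) and between 7.73 and 8.15 in R6/2 (median 8.04, n = 9). No R6/2 array reached the lowest WT array. R6/2 differed by -0.73 ± 0.06 log2 units (SE, limma adjusted p = 6.77e-08) and kept 60.1% of the WT level. Grm2 was also the tightest of the falls, with an SD of 0.08 in WT and 0.13 in R6/2.

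Grm3, the group II receptor that responds to the neuropeptide NAAG besides glutamate, lay between 10.64 and 11.14 in WT (median 11.08, n = 8) and between 9.58 and 10.66 in R6/2 (median 10.22, n = 9). All but 1 of the R6/2 arrays lay below every WT array, and R6/2 replicate 4 reached the 2 lowest WT arrays, replicates 2 and 3. The mean difference was -0.83 ± 0.13 log2 units (SE, limma adjusted p = 1.23e-04), or 56.3% of the WT level. The SD was 0.21 in WT and 0.36 in R6/2.

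Grm4, a group III receptor, lay between 6.60 and 7.07 in WT (median 6.84, n = 8) and between 6.04 and 6.77 in R6/2 (median 6.26, n = 9). The highest R6/2 array was replicate 2, the array with epidermal transcripts, and the other 8 R6/2 arrays lay below every WT array. The mean difference was -0.51 ± 0.10 log2 units (SE, limma adjusted p = 5.70e-04), and -0.57 without R6/2 replicate 2 (limma adjusted p = 5.02e-05).

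Grm8, a group III receptor of presynaptic terminals, was the most widely spread of the called probe sets. It lay between 6.20 and 6.89 in WT (median 6.64, n = 8) and between 5.07 and 6.52 in R6/2 (median 6.17, n = 9), so that 6 of the 9 R6/2 arrays lay below every WT array. The lowest value was that of R6/2 replicate 2. R6/2 differed by -0.72 ± 0.17 log2 units (SE, limma adjusted p = 0.00425), and -0.61 without that array (limma adjusted p = 0.00468).

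Grm7, the most widespread group III receptor of the brain, gave different answers on its 3 probe sets. On the middle probe set, WT arrays lay between 6.49 and 6.74 (median 6.60, n = 8) and R6/2 arrays between 5.67 and 6.43 (median 5.82, n = 9). The groups did not overlap, and the highest R6/2 array was again replicate 2. The log2 change was -0.74 ± 0.08 (SE, limma adjusted p = 2.80e-06), which left 59.7% of the WT level, and it was -0.81 without replicate 2 (limma adjusted p = 4.78e-09). On the brightest probe set, by contrast, WT lay between 9.39 and 9.67 (median 9.50) and R6/2 between 9.27 and 9.88 (median 9.45). The groups overlapped, and the log2 change was -0.03 with a 95% interval from -0.18 to 0.13 (limma adjusted p = 0.844).

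The dimmest Grm7 probe set lay between 3.07 and 4.42 in WT and between 3.29 and 4.06 in R6/2, with a log2 change of -0.01 and a 95% interval from -0.35 to 0.33 (limma adjusted p = 0.969). Its mean over all arrays was 3.74, within the means of 2.75 to 5.52 of 21 genes of other tissues that are not made in cortex, so its level was not above that of transcripts absent from this tissue. Once the genotype means were taken out, the brightest and the middle probe set had a Pearson r of 0.55 (Spearman rho 0.40) over the 34 arrays, as a description, and an r of 0.24 (rho 0.31) over the 33 arrays without R6/2 replicate 2. Which Grm7 transcripts each probe set reads was not tested. The mean of the 3 probe sets, the dimmest included, was lower in R6/2 than in WT by a log2 change of -0.26 (limma adjusted p = 0.0177). Because the probe sets differed, Grm7 is reported by probe set.

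Grm5, the group I receptor that signals through Gq, was not called on either probe set. On the brighter probe set, levels lay between 10.27 and 10.57 in WT (median 10.37, n = 8) and between 9.79 and 10.33 in R6/2 (median 10.27, n = 9). The groups overlapped in 6 of the 9 R6/2 arrays, and the lowest value was that of R6/2 replicate 2. The log2 change was -0.18 with a 95% interval from -0.33 to -0.02 (limma adjusted p = 0.0863), and it became -0.12 without replicate 2 (limma adjusted p = 0.110). A single fit of all 4 genotypes called it at the same change (limma adjusted p = 0.0428).

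On the dimmer Grm5 probe set, levels lay between 9.53 and 10.35 in WT and between 9.42 and 10.50 in R6/2. Here the log2 change was -0.03 with a 95% interval from -0.36 to 0.31 (limma adjusted p = 0.940). The interval of this probe set does not hold a change of the size seen for Grm2 or Grm3, and whether Grm5 changed less than those genes was not tested.

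**Figure D1:**
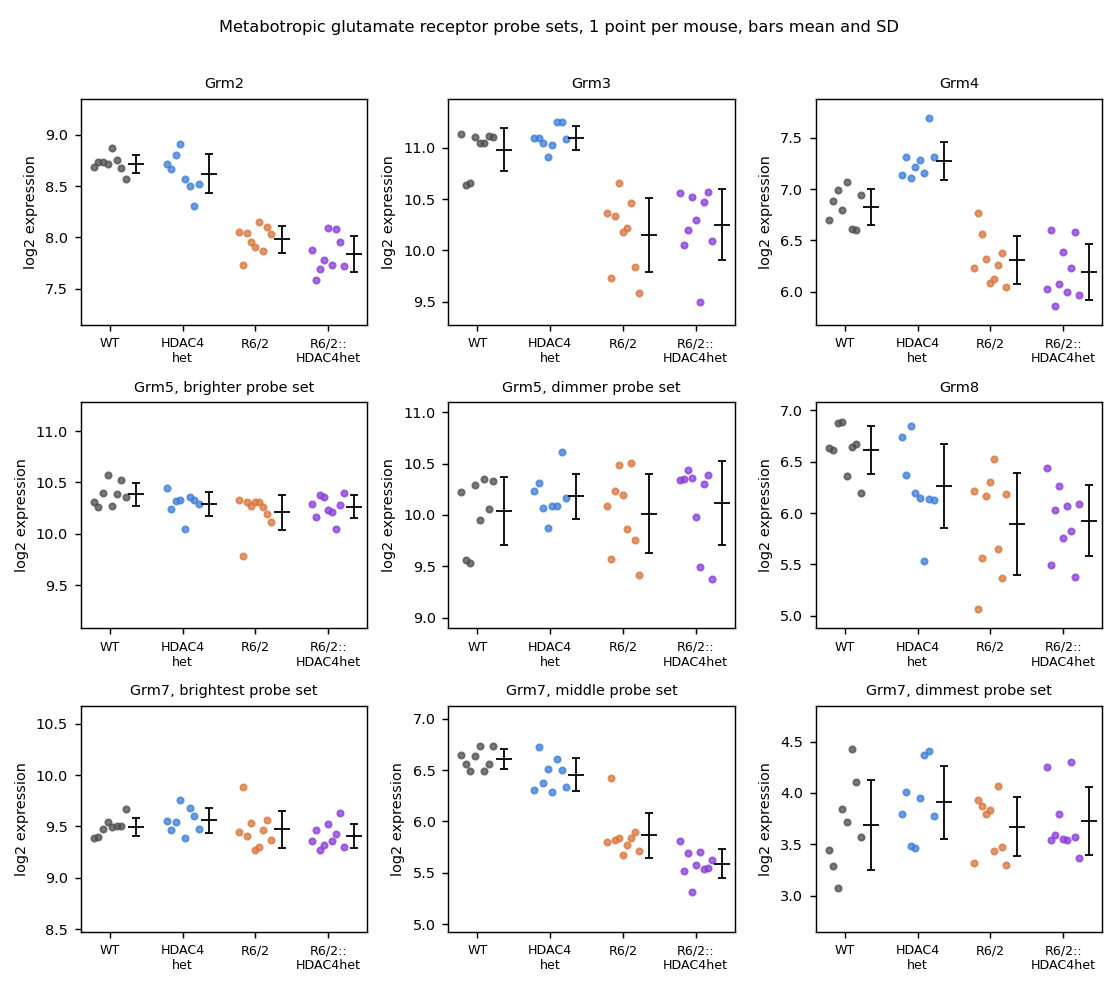
Log2 expression of the 9 receptor probe sets, with 1 point for each mouse in WT (n = 8), HDAC4het (n = 8), R6/2 (n = 9) and R6/2::HDAC4het (n = 9), and the mean and SD beside each group. Each panel spans the same range of log2 units around its own centre. Grm2 and the middle Grm7 probe set were lower in R6/2 without overlap with WT, Grm4 was higher in all HDAC4het mice than in any WT mouse, and the Grm5 panels overlap in all genotypes.

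Markers of several cell types moved with these falls, each marker read on its brightest probe set. Of all 18193 named genes, read in this way, 11.8% were called lower and 20.2% higher in R6/2 against WT. Of 8 measured neuron markers 7 were lower in R6/2 and 0 higher, and the summed level of the list lay between 15.40 and 15.53 in WT and between 15.06 and 15.32 in R6/2. Of 6 GABA neuron markers 5 were lower and 0 higher, with summed levels of 13.30 to 13.46 in WT and 12.37 to 12.62 in R6/2. Of 10 astrocyte markers 6 were lower and 1 higher, with summed levels of 14.52 to 14.73 in WT and 14.17 to 14.38 in R6/2.

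Within the astrocyte list, Aqp4, the water channel of astrocyte endfeet, fell by 0.77 and Gfap, the intermediate filament of reactive astrocytes, rose by 0.58 (limma adjusted p = 7.64e-05 and 0.0149). Of 5 excitatory cortical neuron markers 4 were lower and 1 higher, with summed levels of 13.47 to 13.74 in WT and 13.15 to 13.38 in R6/2. In HDAC4het and R6/2::HDAC4het, neuron sums were 15.18 to 15.49 and 14.88 to 15.28, and astrocyte sums 14.53 to 14.69 and 14.21 to 14.41. The defining markers of neurons and astrocytes were thus present in every group.

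Other lists were read beside the same shares. Of 8 microglia markers 5 were lower and 0 higher, with summed levels of 11.58 to 12.10 in WT and 11.21 to 11.75 in R6/2, and P2ry12, a purinergic receptor of microglia, gave -2.20. Of 6 measured markers of striatal projection neurons 3 were lower and 0 higher, with summed levels of 10.97 to 11.69 (median 11.19) in WT and 10.17 to 11.14 (median 10.34) in R6/2, and the enkephalin gene Penk gave -1.17. Of 7 oligodendrocyte markers 3 were lower and 0 higher (sums of 13.89 to 14.68 and 14.08 to 14.34). These 3 lists overlapped between the genotypes in their sums.

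Of 5 choroid plexus markers 2 were higher, among them the transthyretin gene Ttr at 1.14, and 0 were lower, with sums of 8.78 to 11.26 in WT and 9.93 to 13.01 in R6/2. Of 6 pituitary markers 3 were lower and 0 higher, of 5 oligodendrocyte precursor markers 2 were lower and 0 higher, of 6 endothelial markers 1 was higher and 1 lower, and of 6 epidermal markers 1 was higher. The epidermal sums did not overlap, at 8.46 to 8.78 in WT and 8.83 to 10.35 in R6/2. The part of these marker changes in the receptor results was not tested.

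**Figure D2:**
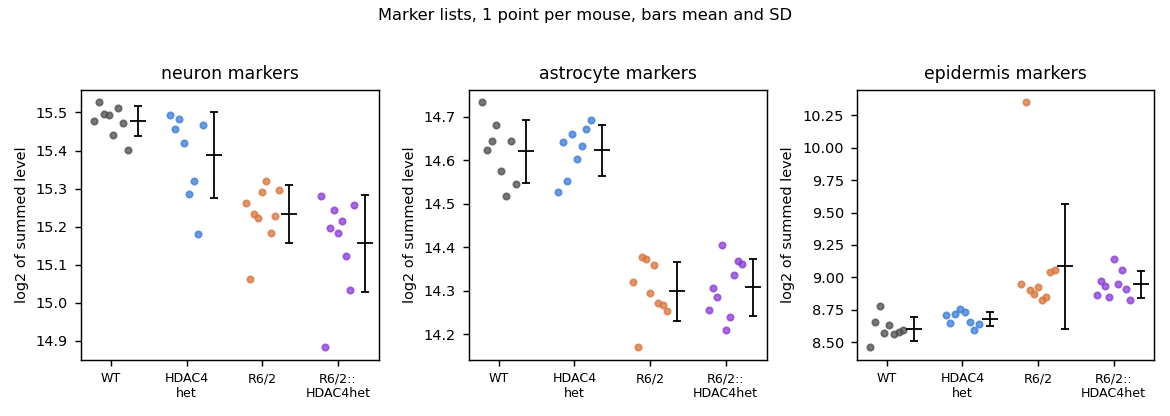
Log2 of the summed level of the neuron, astrocyte and epidermis marker lists, with 1 point for each mouse and the mean and SD of each genotype (WT and HDAC4het n = 8, R6/2 and R6/2::HDAC4het n = 9). The astrocyte and neuron sums of R6/2 lie below all WT values. In the epidermis list the R6/2 and R6/2::HDAC4het arrays lie above all WT and HDAC4het values, and 1 R6/2 array, replicate 2, stands at 10.35.

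The second question was whether the transgene had the same effect in mice with 1 null Hdac4 allele. In R6/2::HDAC4het against HDAC4het, 4 of the 9 probe sets were lower by limma (Grm2, Grm3, Grm4 and the middle Grm7 probe set) and 0 were higher, beside 9.98% of all probe sets called lower. On all 4 of them the R6/2::HDAC4het arrays lay below every HDAC4het array, which held for 3.01% of all probe sets. The median log2 change was -0.34 over the 9 probe sets and 0.01 over all. This comparison shares no array with that of R6/2 and WT.

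Grm2 lay between 8.31 and 8.91 in HDAC4het (median 8.61, n = 8) and between 7.59 and 8.09 in R6/2::HDAC4het (median 7.78, n = 9). This was a log2 change of -0.79 ± 0.09 (SE), with a limma adjusted p of 1.64e-06. Grm3 lay between 10.91 and 11.25 in HDAC4het (median 11.09) and between 9.50 and 10.57 in R6/2::HDAC4het (median 10.30). This gave a log2 change of -0.84 ± 0.12 (SE), with a limma adjusted p of 2.64e-05. In both genes the change stood close to that of the first comparison, and the difference between them, tested as the interaction, was -0.05 for Grm2 (95% interval -0.27 to 0.16) and -0.02 for Grm3 (95% interval -0.39 to 0.36).

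Grm4 showed the widest separation. It lay between 7.11 and 7.69 in HDAC4het (median 7.25, n = 8) and between 5.86 and 6.60 in R6/2::HDAC4het (median 6.08, n = 9). The mean difference was -1.09 ± 0.11 on the log2 scale (SE, limma adjusted p = 4.33e-07), or 47.1% of the HDAC4het level. The middle Grm7 probe set lay between 6.28 and 6.72 in HDAC4het (median 6.44) and between 5.31 and 5.81 in R6/2::HDAC4het (median 5.57), a difference of -0.87 ± 0.07 (SE, limma adjusted p = 6.37e-08).

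Grm8 overlapped here. It lay between 5.53 and 6.85 in HDAC4het (median 6.17) and between 5.37 and 6.44 in R6/2::HDAC4het (median 6.03), with a log2 change of -0.34 and a 95% interval from -0.68 to 0.01 (limma adjusted p = 0.170). Leaving out HDAC4het replicate 6, its lowest array, moved the change to -0.44 (limma adjusted p = 0.0443). The change was thus -0.72 without and -0.34 with the null allele, but the difference between these, 0.38 with a 95% interval from -0.13 to 0.89, did not pass (limma adjusted p = 0.644).

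The remaining probe sets overlapped between these groups. The brightest Grm7 probe set changed by -0.15 with a 95% interval from -0.29 to -0.02 (limma adjusted p = 0.0921), and by -0.18 without R6/2::HDAC4het replicate 8 (limma adjusted p = 0.0372). Grm5 gave -0.03 (95% interval -0.16 to 0.10) on the brighter probe set and -0.07 (95% interval -0.38 to 0.24) on the dimmer probe set, and the dim Grm7 probe set gave -0.18 (95% interval -0.50 to 0.13). Of all named genes, read on their brightest probe set, 11.7% were called lower and 18.3% higher in this comparison. Neuron markers were again lower (6 of 8) and so were astrocyte markers (6 of 10), with summed astrocyte levels of 14.53 to 14.69 in HDAC4het and 14.21 to 14.41 in R6/2::HDAC4het. GABA neuron markers were lower in 6 of 6 (median log2 change -0.78), microglia markers in 7 of 8 (median -0.37), markers of striatal projection neurons in 3 of 6 (median -0.60), excitatory cortical neuron markers in 3 of 5 (median -0.44) and oligodendrocyte markers in 3 of 7 (median -0.18), and none of these lists held a marker that was higher. Of 6 epidermal markers, by contrast, 3 were higher and 0 lower. Of 6 endothelial markers 1 was lower and 0 higher, and of 5 oligodendrocyte precursor markers 1 was lower and 0 higher. No choroid plexus or pituitary marker was called, with medians of 0.49 and -0.43. The part of these changes was not tested.

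Over both comparisons, the highest Grm2 value of the 18 transgene carriers was 8.15 and the lowest of the 16 mice without the transgene was 8.31. Of the 18 carriers, 1 reached the lowest mouse without the transgene for Grm3 (R6/2 replicate 4), 1 for Grm4 and 1 for the middle Grm7 probe set (R6/2 replicate 2 both times). For Grm8 this was 14 of 18, and for Grm5 it was 17 and 15 of 18 on the brighter and the dimmer probe set.

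The third question was whether the null Hdac4 allele altered the receptors in mice without the transgene. Only Grm4 was called among the 9 probe sets of HDAC4het against WT, and it was higher, beside 1.67% of all probe sets called higher. Grm4 rose from a range of 6.60 to 7.07 in WT (median 6.84, n = 8) to 7.11 to 7.69 in HDAC4het (median 7.25, n = 8). Every HDAC4het array lay above every WT array, which was so for 0.144% of all probe sets, although the lowest HDAC4het array and the highest WT array lay close together. The log2 change was 0.45 ± 0.09 (SE, limma adjusted p = 0.0203), or 137% of the WT level.

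This call rested on how the arrays were handled. The Grm4 change was 0.47 when Xist-read sex entered as a covariate (limma adjusted p = 0.0769), and without the 4 arrays high in Prl it was 0.40 (limma adjusted p = 0.189). Over the whole table these fits called 22 and 5 probe sets, down from 1760, and 704 in a single fit of all 4 genotypes, where Grm4 still passed. Pituitary markers summed to between 7.09 and 12.90 in WT and between 7.04 and 11.05 in HDAC4het, and none of them was called. Of 8 microglia markers 1 was lower, beside 1.71% of all named genes. Of 6 endothelial markers 1 was higher, and so was 1 of 6 epidermal markers, beside 1.67% of all probe sets. The other marker lists held no call. The part of these markers in the Grm4 result was not tested.

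The other 8 probe sets overlapped between HDAC4het and WT. Grm2 changed by -0.09 (95% interval -0.25 to 0.06) and Grm3 by 0.11 (95% interval -0.06 to 0.29). Grm8 changed by -0.35 (95% interval -0.66 to -0.03) and the middle Grm7 probe set by -0.15 (95% interval -0.30 to -0.01), neither past the test (limma adjusted p = 0.186 and 0.210). Grm5 gave -0.09 (95% interval -0.22 to 0.04) and 0.14 (95% interval -0.13 to 0.41), and the other Grm7 probe sets gave 0.06 (95% interval -0.06 to 0.19) and 0.22 (95% interval -0.15 to 0.60). The median change over the 9 was 0.06, beside 0.00 over all probe sets. HDAC4het and R6/2 were both compared with the same WT arrays.

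The last question was whether lowering Hdac4 altered the receptors in R6/2 mice. None of the 9 probe sets was called by limma in R6/2::HDAC4het against R6/2, where 3 of 45037 were called in either direction (0.00666%), and 1 of the 9 had an unadjusted p under 0.05, beside 5.68% of all probe sets. That probe set was the middle Grm7 probe set, at 5.67 to 6.43 in R6/2 (median 5.82) and 5.31 to 5.81 in R6/2::HDAC4het (median 5.57). The log2 change was -0.27 ± 0.09 (SE, limma adjusted p = 0.789), 6 of the 9 R6/2::HDAC4het arrays lay below every R6/2 array, and the change was -0.20 without R6/2 replicate 2 (limma adjusted p = 0.760).

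The intervals of the other receptors were as follows. Grm2 changed by -0.15 (95% interval -0.30 to 0.01) and Grm3 by 0.10 (95% interval -0.22 to 0.42). Against changes of -0.73 and -0.83 in R6/2, neither interval reached a return to the WT level. Grm4 changed by -0.12 (95% interval -0.35 to 0.12) and Grm8 by 0.03 (95% interval -0.35 to 0.42). These R6/2 arrays are those compared with WT above, so the comparisons share them. Grm5 gave 0.05 (95% interval -0.09 to 0.20) and 0.10 (95% interval -0.26 to 0.46) on its brighter and dimmer probe set, and the brightest and dimmest Grm7 probe sets gave -0.07 (95% interval -0.22 to 0.09) and 0.05 (95% interval -0.23 to 0.34). The median over the 9 was 0.03, beside -0.00 over all probe sets.

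The interaction of transgene and allele was called on 0 of the 9 probe sets by limma and on 1 of 45037 in all (0.00222%), and 1 of the 9 had an unadjusted p under 0.05, beside 9.87% of all probe sets. This was Grm4, whose mean was higher in HDAC4het than in WT by 0.45 and changed by -0.12 from R6/2 to R6/2::HDAC4het. The interaction was -0.57 ± 0.15 (SE, 95% interval -0.87 to -0.27, limma adjusted p = 0.203).

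In order of mean level, Grm2 ran from WT (8.72 ± 0.08, SD) through HDAC4het (8.62 ± 0.19) and R6/2 (7.98 ± 0.13) to R6/2::HDAC4het (7.84 ± 0.18), and only the step between HDAC4het and R6/2 was free of overlap. Grm3 ran from HDAC4het (11.10 ± 0.11) through WT (10.98 ± 0.21) and R6/2::HDAC4het (10.25 ± 0.34) to R6/2 (10.15 ± 0.36). The arrays of its upper pair overlapped, as did those of its lower pair. Grm4 ran from HDAC4het (7.28 ± 0.18) through WT (6.82 ± 0.18) and R6/2 (6.31 ± 0.24) to R6/2::HDAC4het (6.19 ± 0.27), where HDAC4het and WT did not overlap and the lower pair did. The middle Grm7 probe set ran from WT (6.61 ± 0.10) through HDAC4het (6.46 ± 0.16) and R6/2 (5.86 ± 0.22) to R6/2::HDAC4het (5.59 ± 0.14), and each neighbour in that order overlapped the next, between HDAC4het and R6/2 through R6/2 replicate 2 alone.

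Grm8 ran from WT (6.61 ± 0.23, SD) through HDAC4het (6.26 ± 0.41) and R6/2::HDAC4het (5.93 ± 0.35) to R6/2 (5.89 ± 0.49), and each neighbour in that order overlapped the next. For Grm5 the means lay between 10.21 and 10.39 on the brighter probe set and between 10.01 and 10.18 on the dimmer probe set, and for Grm7 between 9.40 and 9.56 on the brightest probe set and between 3.67 and 3.91 on the dimmest probe set. No neighbours of these probe sets were apart.

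**Figure D3:**
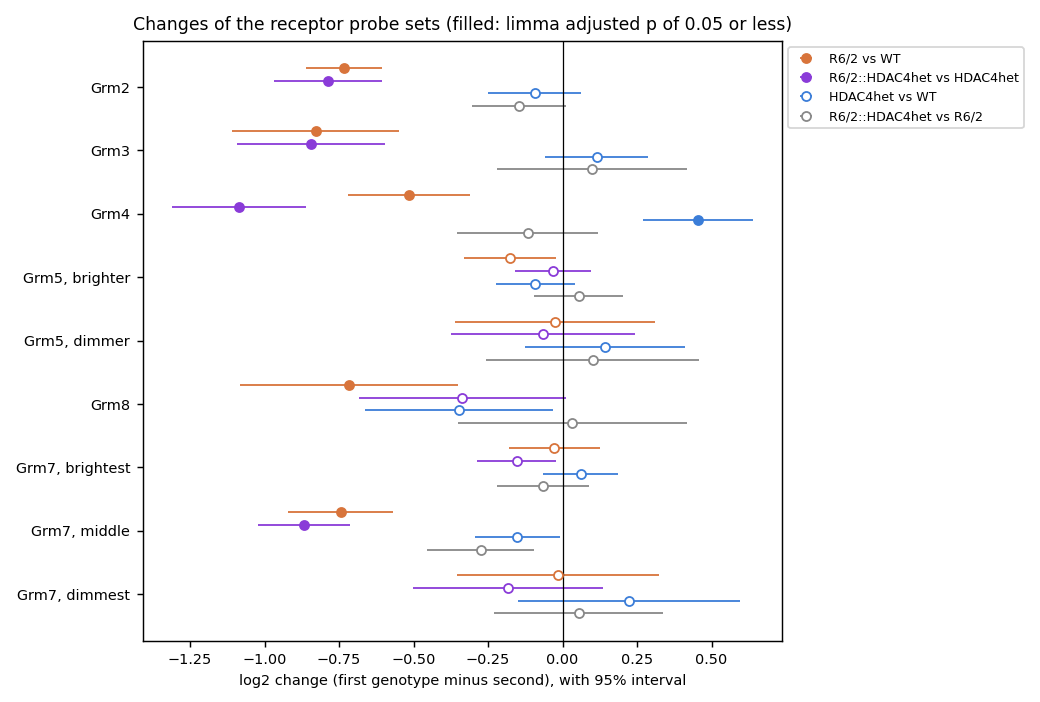
Log2 change of each receptor probe set in 4 comparisons (first genotype minus second), with 95% intervals from limma and filled points at an adjusted p of 0.05 or less. R6/2 and R6/2::HDAC4het points are filled and left of 0 for Grm2, Grm3, Grm4 and 1 Grm7 probe set, Grm8 is filled in R6/2 against WT, and Grm4 alone is filled right of 0, in HDAC4het against WT.

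Genes that supply and act beside the receptors were listed by role, and each gene was read on its brightest probe set. Of 11 measured genes for the supply and clearance of glutamate and NAAG, 4 were lower in R6/2 than in WT and 0 higher, with a median log2 change of -0.04 beside 0.02 over all genes. Of all 18193 named genes, read in the same way, 11.8% were called lower and 20.2% higher in this comparison. Slc1a2 and Slc1a3, the astrocyte glutamate transporters, changed by -0.45 ± 0.12 and -0.21 ± 0.08 (SE). Slc17a7, which loads glutamate into synaptic vesicles, changed by -0.40 ± 0.13 (SE), and Glul, the astrocyte glutamine synthetase, by -0.20 ± 0.05 (SE). The NAAG synthetases Rimkla and Rimklb gave 0.01 and -0.03 (limma adjusted p = 0.959 and 0.803) and Folh1, which cleaves NAAG, gave 0.09 (limma adjusted p = 0.857).

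Of 16 measured scaffolds and interacting proteins, 7 were lower in R6/2, 5 higher and 4 not called, with a median of -0.20. Elfn1, a synaptic adhesion protein that recruits Grm7 to terminals on somatostatin interneurons, changed by -0.91 ± 0.09 (SE, limma adjusted p = 3.58e-07). Fmr1, whose product represses translation downstream of group I receptors, changed by -0.68 ± 0.13 (SE). Homer1 and Homer2, which tether Grm5 to the postsynaptic density, changed by -0.65 ± 0.08 and -0.62 ± 0.11 (SE). Homer3, of the same family, was higher by 0.27 ± 0.08 (SE, limma adjusted p = 0.0172). The largest rises in this list were those of Ppp1cc (0.58 ± 0.06) and Siah1a (0.42 ± 0.06, SE).

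In the Gq arm, through which Grm5 acts, 6 of 12 measured genes were lower in R6/2 and 2 were higher, with a median of -0.19. Plcb1, the phospholipase C of this pathway in cortex, changed by -0.78 ± 0.05 (SE, limma adjusted p = 5.52e-09). Dagla, which makes the endocannabinoid 2-arachidonoylglycerol, changed by -0.69 ± 0.07, the protein kinase C gene Prkcb by -0.58 ± 0.05, and the diacylglycerol kinase gene Dgkz by -0.49 ± 0.07 (SE). Gnaq, the G protein subunit itself, was higher by 0.31 (limma adjusted p = 0.00137).

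In the Gi/o arm, through which group II and group III receptors act, 5 of 16 genes were higher and 4 lower, with a median of 0.11. The calcium-stimulated cyclase gene Adcy1 changed by -0.57 ± 0.06 and Adcy2 by -0.39 ± 0.08, while the inhibitory subunit gene Gnai2 changed by 0.51 ± 0.09 and the gamma subunit gene Gng7 by 0.38 ± 0.10 (SE). Of 5 measured receptor kinases and arrestins, Grk5 was lower (-0.62 ± 0.14) and Grk6 and Arrb2 were higher (0.55 ± 0.09 and 0.33 ± 0.07, SE), and 2 were not called.

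The same lists were read in the other comparisons. In R6/2::HDAC4het against HDAC4het, 3 of the 11 supply genes were lower and 1 was higher, 6 of the 16 scaffolds were lower and 3 higher, 6 of the 12 Gq genes were lower and 2 higher, and 3 of the 16 Gi/o genes were lower and 3 higher, beside 11.7% of all named genes called lower and 18.3% called higher. Of the receptor kinases and arrestins 1 of 5 was lower and 1 higher. Elfn1 changed by -0.98, Plcb1 by -0.75 and Homer1 by -0.72 there (limma adjusted p = 8.06e-09, 1.10e-05 and 1.26e-07). Some genes named as lower or higher in R6/2 against WT were not called there. These were Slc1a3 (-0.24, limma adjusted p = 0.0699), Glul (-0.11, 0.080), Fmr1 (-0.31, 0.108), Homer3 (0.24, 0.0718), Gng7 (-0.03, 0.881) and Arrb2 (0.20, 0.101). In HDAC4het against WT, 1 supply gene, Rimklb (-0.21, limma adjusted p = 0.0481), and 1 scaffold, Fmr1 (-0.37, limma adjusted p = 0.0305), were called lower, beside 1.71% of all named genes. Neither call held with sex read from Xist (limma adjusted p = 0.153 for Rimklb and 0.105 for Fmr1) or without the arrays high in Prl (0.327 and 0.190). In R6/2::HDAC4het against R6/2, no gene of these lists was called by limma.

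**Figure D4:**
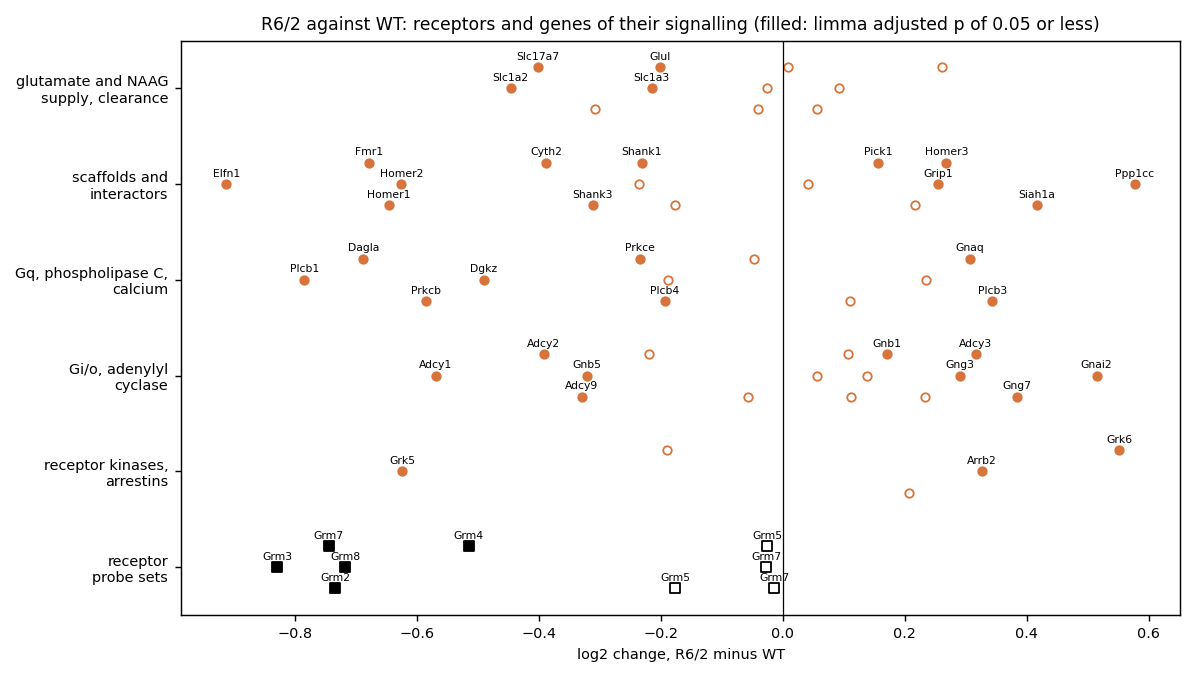
Log2 change of R6/2 against WT for the genes of 5 signalling lists, 1 point per gene on its brightest probe set, and for the 9 receptor probe sets (squares), with filled symbols at a limma adjusted p of 0.05 or less. All 4 called supply and clearance genes and all 5 called receptor probe sets lie left of 0, whereas the called genes of the other lists lie on both sides.

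Genes most like each receptor across the arrays were sought once the genotype means were taken out, among 18192 other genes over 34 arrays, which share RNA quality and dissection within an array. For Grm3 these were Gpd2, a mitochondrial glycerol phosphate dehydrogenase (Pearson r = 0.93, Spearman rho = 0.88), and Plxna2, a semaphorin co-receptor (r = 0.93, rho = 0.88). For Grm8 they were Gnb5, a G protein beta subunit (r = 0.90, rho = 0.89), and Ppp2r2b, a subunit of protein phosphatase 2A (r = 0.88, rho = 0.90). Without the 2 arrays farthest from the median, Gpd2 stood at r = 0.92, Plxna2 at 0.89, Gnb5 at 0.87 and Ppp2r2b at 0.84.

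For Grm4 they were Pitpnm2, a phosphatidylinositol transfer protein (r = 0.86, rho = 0.87), and Srpk1, a kinase of splicing factors (r = 0.85, rho = 0.84). For Grm2 they were Olfm2, a secreted olfactomedin (r = 0.77, rho = 0.74), and Lcat, a cholesterol acyltransferase (r = 0.74, rho = 0.68). The brightest Grm7 probe set was closest to Med9os (r = 0.82, rho = 0.66) and Rwdd4a (r = 0.80, rho = 0.62), and Grm5 on its brighter probe set to Sowaha (r = 0.76, rho = 0.68) and the transcription factor gene Sp3 (r = 0.76, rho = 0.60). Without the 2 farthest arrays, these last 4 dropped to 0.66, 0.64, 0.58 and 0.52 (without R6/2 replicate 2 alone, to 0.70, 0.66, 0.57 and 0.58), whereas the Grm4 pair stood at 0.85 and 0.83 and the Grm2 pair at 0.73 and 0.67. The 2 Grm5 probe sets had an r of 0.29 with each other (rho 0.26), and 0.18 (rho 0.17) without R6/2 replicate 2.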

How the data were processed

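RNA from the cortex of single mice was hybridised to Affymetrix mouse arrays that cover the genome. Each deposited value is the log2 level of a probe set, as the authors computed it. They assessed array quality with the RACE package and left out arrays of poor quality. How background was corrected and how arrays were normalized and summarised is not given in the sources used here.

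Groups were taken from the genotype in the labels. The platform annotation gave 1 symbol to 34945 of the 45037 probe sets, several to 932 and none to 9160. Those with several or none were not named, among them 1 probe set that carries Grm2 beside another symbol. Symbols were updated through a RefSeq table (GRCm38.p6, 34741 probe sets matched). The representative sequence of the Grm8 probe set was among the RefSeq transcripts listed for its gene. Those of the other receptor probe sets were not, and which transcripts these probe sets read was not tested. Pairs of genotypes were fitted in R 4.3.3 by limma 3.58.1 (lmFit, eBayes) on the arrays of each pair, and the interaction on all 34 arrays. P-values were adjusted by Benjamini-Hochberg across the whole table and called at 0.05 or less, and no filter on level was used. Replicates are separate mice. The members, gene lists and tests were chosen with earlier results of these data known. Named genes were all member probe sets, up to 4 called genes with the largest changes from R6/2 against WT in each list, and the 2 most alike genes of each member. Rimkla, Rimklb, Folh1, Gnaq, Homer3, Ppp1cc, Siah1a, Aqp4, Gfap, P2ry12, Penk, Ttr and the HDAC4het calls were named after their values were seen. The fits of pairs were also run on simulated data with 200 changed probe sets and independent errors. Such data do not hold arrays that deviate together, and no result here rests on them. Figures used matplotlib 3.10.9.

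Alternatives were quantile normalization, brighter probe sets only, array weights, eBayes with trend and robust, sex from the labels or from Xist (split at the widest gap), the replicate number as a block, leaving out arrays with Prl above 8, leaving out each array, a single fit, the methods' t-test and the mean of the probe sets of a gene. The correlations without R6/2 replicate 2, and the Rimklb and Fmr1 calls under these alternatives, were added after seeing the data.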

Additional observations from a re-analysis of the deposited data

Results flagged for a closer look

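In 5 of the 36 groups of receptor values, 1 array lay far from the others, by the gap to its nearest neighbour as a share of the range of the group. Chance marks about 1 in 20 such groups. Of these, 3 were R6/2 replicate 2, the array with epidermal transcripts. It read 6.43 for the middle Grm7 probe set, where the nearest array read 5.90 (share 0.699), 9.79 for the brighter Grm5 probe set, where the nearest read 10.11 (share 0.598), and 9.88 for the brightest Grm7 probe set, where the nearest read 9.56 (share 0.523). HDAC4het replicate 7 read 7.69 for Grm4, where the nearest read 7.31 (share 0.657), and R6/2::HDAC4het replicate 6 read 9.50 for Grm3, where the nearest read 10.05 (share 0.518).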

How the results depend on the processing

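The counts of called receptor probe sets (5, 1, 0, 4 and 0 in the order R6/2 against WT, HDAC4het against WT, R6/2::HDAC4het against R6/2, R6/2::HDAC4het against HDAC4het, and the interaction) were the same under the alternatives run, apart from 6 in R6/2 against WT (the single fit), 5 in R6/2::HDAC4het against HDAC4het (without HDAC4het replicate 6 or R6/2::HDAC4het replicate 8), and a lost call in HDAC4het against WT, where the count was 0 with sex read from Xist (Grm4 0.47) and 0 without the arrays high in Prl (Grm4 0.40). The cause was not tested. Among 559 changes of single probe sets under alternatives, 532 kept direction and side of the threshold, 2 lost a call and 5 gained one. The gains were the brighter Grm5 probe set in R6/2 against WT in the single fit (-0.18), the mean of the Grm7 probe sets in R6/2 against WT (-0.26) and R6/2::HDAC4het against HDAC4het (-0.40), and the 2 from leaving out an array that the report gives.

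In 20 cases the sign turned, with 0 of them called in either fit. For R6/2 against WT these were the dimmer Grm5 probe set with quantile normalization (0.0052), array weights (0.035), the replicate block (0.049) and without R6/2 replicate 2 (0.029), from -0.097 to 0.049 when single arrays were left out, and the dimmest Grm7 probe set with the replicate block (0.033) and without the arrays high in Prl (0.14), from -0.10 to 0.092 when single arrays were left out. For R6/2::HDAC4het against R6/2 they were Grm8 with array weights (-0.0087) and without R6/2 replicate 2 (-0.070, the lowest when single arrays were left out, the highest being 0.11), and the dimmest Grm7 probe set (-0.018 to 0.10 when single arrays were left out). For R6/2::HDAC4het against HDAC4het it was the dimmer Grm5 probe set with the replicate block (0.026), from -0.11 to 0.026 when single arrays were left out. For HDAC4het against WT it was the mean of the Grm5 probe sets (0.026). For the interaction they were Grm3 with sex from the labels (0.011), sex from Xist (0.0044) and without the arrays high in Prl (0.014), from -0.087 to 0.078 when single arrays were left out, and the dimmer Grm5 probe set (-0.12 to 0.051 when single arrays were left out).

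Whether the replicate numbers pair the samples was not settled. Same-numbered arrays deviated together with r from -0.35 to 0.45, and arrays of different numbers were not compared. An r over 0.1 was seen in 6 of 9 pairs of R6/2::HDAC4het against R6/2 and in 4 of 8 of R6/2 against WT. It was seen in 3 of 8 pairs in each of the other 2 comparisons. With the replicate number as a block the counts of called receptors were 5, 1, 0, 4 and 0. Array signal limits the dimmest Grm7 probe set, which only the restriction to brighter probe sets left without a value. Genes not made in cortex had means of up to 5.52, and single arrays of 2 called probe sets also lay under that. For Grm8 the lowest arrays read 5.07 in R6/2 and 5.37 in R6/2::HDAC4het. The lowest R6/2::HDAC4het array read 5.31 for the middle Grm7 probe set. Whether this limited the size of their changes was not tested. Over all probe sets, calls for HDAC4het against WT ran from 1760 to 3305 with sex from the labels, 877 with the replicate block, 704 in the single fit, 173 by the methods' t-test, 22 with sex from Xist and 5 without the arrays high in Prl. Leaving out single arrays gave 183 (without HDAC4het replicate 6) to 3994 (without WT replicate 8). For R6/2 against WT, 12127 probe sets were called, and 8040 without the arrays high in Prl. R6/2::HDAC4het against R6/2 gave 1 to 7 calls and the interaction 0 to 10.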
